A study of Saccharomyces cerevisiae with 6 samples.

Results

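The transporters of the AVT and YPQ families carry amino acids across the membrane of the yeast vacuole, and their messenger RNA is described here in Saccharomyces cerevisiae, budding yeast, with and without VPS4. The 10 genes AVT1 to AVT7, YPQ1, YPQ2 and RTC2 (also called YPQ3) were taken by their gene symbols, and each had 1 probe set among the 5498 tested S. cerevisiae probe sets. The 3 VPS4 deletion arrays and the 3 wild type arrays measured RNA of cells in mid-log growth at 26 °C, in synthetic YNB medium with the amino acids they required. Both groups therefore shared medium, temperature and growth stage, and the deletion of VPS4 was the labelled difference. Strain background and number of clones are not given in the sources used here, nor whether replicates were separate cultures, so the p-values speak only of array-to-array spread, which may be technical. The series title names amino acid recycling through the multivesicular body pathway, which Vps4 serves, as the question.

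The yeast vacuole stores neutral and basic amino acids, and the proton gradient made by the vacuolar ATPase drives their transport. Avt1 takes neutral amino acids into the vacuole, whereas Avt3, Avt4, Avt6 and Avt7 move amino acids out to the cytosol. The Ypq proteins are PQ-loop transporters for basic amino acids and are relatives of a lysosomal transporter of mammals. The Ypq1 protein is known to be ubiquitylated through Rsp5 and its adaptor Ssh4 and degraded in the vacuole lumen when lysine is withdrawn, a step that uses the ESCRT machinery. The arrays measured messenger RNA, not protein or its place in the cell.

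Levels are log2 expression values as the authors deposited them, and a difference of 1 is a 2-fold difference. The VPS4 probe set read 1.75, 1.42 and 1.29 on the deletion arrays, against 11.46, 11.48 and 11.39 in wild type. It was not above background in the deletion, so its level there was at least 760-fold lower (limma adjusted p = 1.30e-07). All 4 alpha mating type markers and all 5 a type markers were above background on every array, but at unlike levels. The alpha markers read 11.72 to 13.11 and the a markers 2.76 to 7.44. Of these markers, 2 alpha and 2 a markers were lower in the deletion and 0 of either kind were higher (limma adjusted p under 0.05). Over all tested probe sets 1.46% were lower and 2.82% higher. Named after their values were seen, the lower ones were SAG1 (-0.63) and MF(ALPHA)2 (-0.31) for alpha, and STE2 (-1.01) and MFA2 (-0.88) for a. Wild type replicate 3 stood apart, with Pearson's r across genes of 0.9926 to each of the other wild type arrays, which had 0.9991 between them. The deletion arrays had r between 0.9988 and 0.9991. With the deletion arrays, wild type replicates 4 and 6 had r of 0.9936 to 0.9943, and replicate 3 had 0.9895 to 0.9899. By this measure wild type replicates 4 and 6 were closer to the deletion arrays than to wild type replicate 3. For this reason results are also given without wild type replicate 3. In the fit without it the lower markers named above stayed lower. STE3 (limma adjusted p = 0.00641) and MFA1 (limma adjusted p = 0.0209) were lower there too, beside 10.1% of all tested probe sets. How the marker calls fared with another array left out is not given.

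No AVT or YPQ gene passed the test between deletion and wild type. Of the 10 genes, 0 were higher and 0 were lower (limma, Benjamini-Hochberg adjusted over all probe sets, threshold 0.05), with 1 at an unadjusted p under 0.05. Over all 5498 tested probe sets 4.27% were called, 2.82% as higher and 1.46% as lower, so a count of 0 in 10 is near that background and is not a result about these genes. An unadjusted p under 0.05 was reached by 17.4% of all probe sets. The differences, deletion minus wild type, were positive for 5 genes and negative for 5. Their median was -0.010, beside -0.0019 over all tested probe sets, and their median absolute difference was 0.053, beside 0.061. With wild type replicate 3 left out, the median of the 10 was 0.011, beside -0.0036 over all tested probe sets, and the median absolute difference 0.029, beside 0.073.

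**Figure D1:**
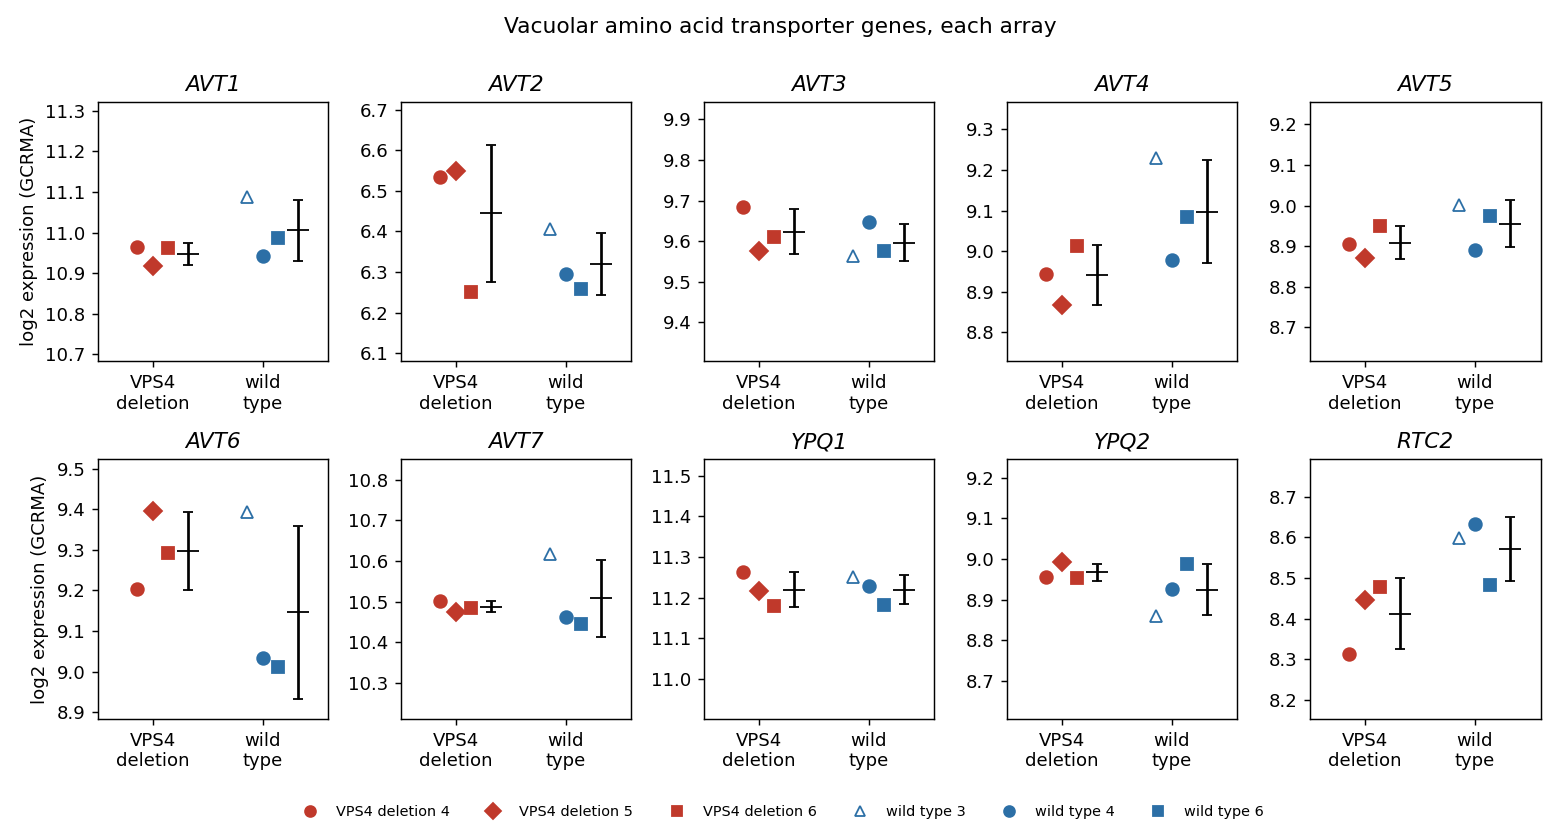
Log2 expression of each of the 10 transporter genes on every array, VPS4 deletion in red on the left and wild type in blue on the right of each panel, with mean and SD bars in black (n = 3 each). The panels span the same height in log2 units around different levels. Wild type replicate 3 (open triangle) lies above both other wild type arrays in 7 of the 10 panels, and for 2369 of all 5498 tested probe sets. The genotypes separate in 1 panel, RTC2, and for 24.8% of all tested probe sets.

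AVT1 (YJR001W), the neutral amino acid importer of the vacuole, stood at 10.96, 10.92 and 10.96 on the deletion arrays, against 11.09, 10.94 and 10.99 on wild type replicates 3, 4 and 6. The groups overlapped, since wild type replicate 4 lay between deletion values. The difference was -0.058 ± 0.042 (SE), with an interval (95%, not adjusted for the number of genes) from -0.16 to 0.042 (limma adjusted p = 0.561). It was -0.017 ± 0.027 (SE) without wild type replicate 3.

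Among the exporters, AVT3 (YKL146W), which moves neutral amino acids out of the vacuole, read 9.68, 9.58 and 9.61 in the deletion and 9.56, 9.65 and 9.58 in wild type. These values interleaved, with a difference of 0.027 ± 0.045 (SE; limma adjusted p = 0.824). AVT4 (YNL101W), an exporter of similar substrates, read 8.94, 8.87 and 9.01 in the deletion and 9.23, 8.98 and 9.08 in wild type. Deletion replicate 6 lay above wild type replicate 4, and the other values of AVT4 did not cross. Its difference was -0.16 ± 0.075 (SE), with a 95% interval from -0.33 to 0.023 (limma adjusted p = 0.353). The difference was -0.089 ± 0.055 (SE) without wild type replicate 3, its highest array.

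AVT6 (YER119C), the exporter of aspartate and glutamate, read 9.20, 9.39 and 9.29 on the deletion arrays, against 9.39, 9.03 and 9.01 on wild type replicates 3, 4 and 6. Wild type replicate 3 was nearly level with the highest deletion array, while the other wild type arrays lay below every deletion array. AVT6 had the widest wild type spread of the 10 genes, 9.15 ± 0.21 (SD, n = 3), beside 9.30 ± 0.096 (SD, n = 3) in the deletion. Over 6 arrays the difference was 0.15 ± 0.11 (SE), short of the threshold (limma adjusted p = 0.565). Without wild type replicate 3, which stood 0.37 log2 above the mean of the other wild type arrays, AVT6 was 1.21-fold higher in the deletion, by 0.27 ± 0.055 (SE; limma adjusted p = 0.00655). In that fit 22.0% of all tested probe sets were called: 11.9% of all tested were higher and 10.1% of all tested were lower in the deletion. AVT6 was the 1 called gene of 10, a share below the background. What set replicate 3 apart was not tested.

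AVT7 (YIL088C), which exports glutamine and proline, read 10.50, 10.48 and 10.48 in the deletion and 10.62, 10.46 and 10.44 in wild type. The deletion arrays lay within 0.027 of each other, and wild type replicate 3 was the single wild type array above them. The difference was -0.021 ± 0.050 (SE; limma adjusted p = 0.887), and it turned to 0.033 ± 0.026 without replicate 3, again short of the threshold (limma adjusted p = 0.418).

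The remaining AVT genes, AVT2 and AVT5, encode family members whose substrates are less well known. AVT2 (YEL064C) read 6.53, 6.55 and 6.25 in the deletion and 6.41, 6.30 and 6.26 in wild type. Deletion replicate 6 lay 0.30 below the highest deletion array and under all wild type arrays, so AVT2 had the widest deletion spread of the family, 6.44 ± 0.17 (SD, n = 3). Its difference of 0.12 ± 0.099 (SE) did not pass (limma adjusted p = 0.608). AVT5 (YBL089W) read 8.91, 8.87 and 8.95 in the deletion and 9.00, 8.89 and 8.98 in wild type, a difference of -0.047 ± 0.049 (SE; limma adjusted p = 0.697), or -0.024 ± 0.047 (SE) without wild type replicate 3.

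Of the PQ-loop genes, YPQ1 (YOL092W) was closest to equal between genotypes. It read 11.26, 11.22 and 11.18 in the deletion, against 11.25, 11.23 and 11.18 in wild type. The difference was 0.00012 ± 0.033 (SE), and its 95% interval, from -0.078 to 0.078, was the narrowest of the 10 and corresponds to folds between 0.947 and 1.06. YPQ2 (YDR352W), whose protein exchanges arginine across the vacuole membrane, read 8.96, 8.99 and 8.95 in the deletion and 8.86, 8.93 and 8.99 in wild type. The YPQ2 values overlapped, with a difference of 0.043 ± 0.047 (SE; limma adjusted p = 0.720).

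RTC2 (YBR147W), the third of the PQ-loop genes, read 8.31, 8.44 and 8.48 in the deletion and 8.60, 8.63 and 8.48 on wild type replicates 3, 4 and 6. Its groups did not overlap, although deletion replicate 6 and wild type replicate 6 lay only a few thousandths of a log2 unit apart. Groups failed to overlap for 1 of the 10 genes and for 24.8% of all tested probe sets. RTC2 had the largest absolute difference and the smallest p of the 10, -0.16 ± 0.066 (SE; 0.896-fold, 95% interval of the fold from 0.803 to 0.999). The unadjusted limma p was 0.0485 and the adjusted p 0.283. An absolute difference of that size or more was seen in 18.6% of all tested probe sets. RTC2 differed by -0.15 ± 0.067 (SE; limma adjusted p = 0.159) without wild type replicate 3. Groups did not overlap there for 3 of the 10 genes, RTC2, AVT6 and AVT7, beside 50.5% of all probe sets.

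**Figure D2:**
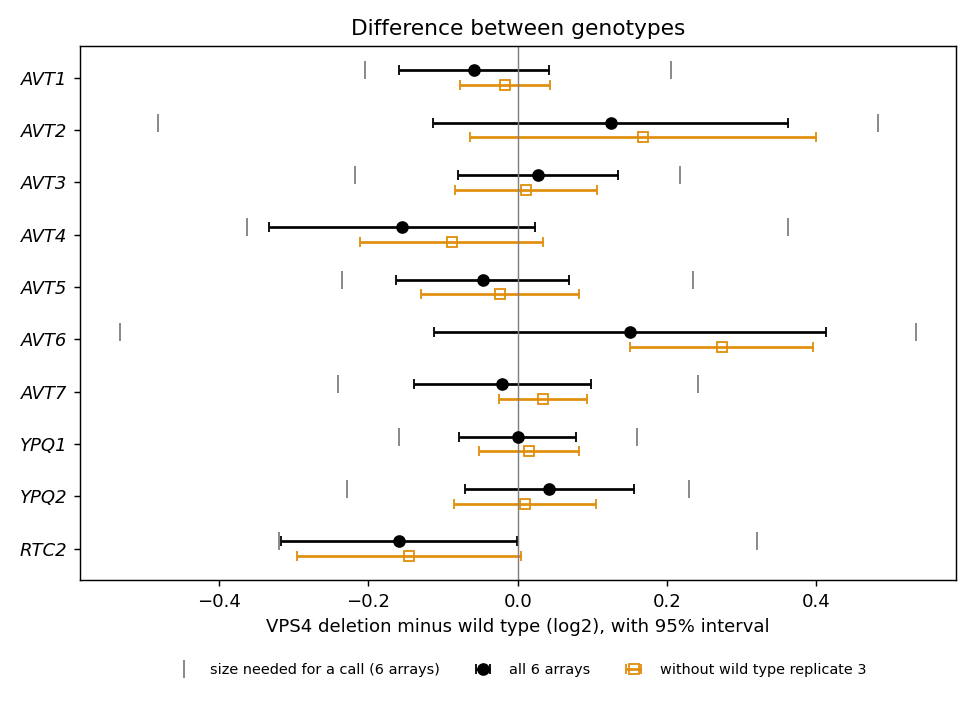
Difference in log2 expression, VPS4 deletion minus wild type, with 95% intervals from limma, for all 6 arrays (filled black circles) and without wild type replicate 3 (open orange squares); grey ticks mark the size each gene would have needed to pass the adjusted threshold. Without replicate 3 the AVT6 interval runs from 0.15 to 0.40, and no filled circle reaches its grey tick.

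The spread between arrays set how small a change could have been called. At the SE that each gene showed, a call would have needed a difference of 0.16 for YPQ1, the most precise, and of 0.53 for AVT6, the least, or folds of 1.12 and 1.45. The 95% intervals of all 10 genes lay between -0.33 and 0.41, which as folds is 0.794 to 1.33. Of the 10, 6 had intervals that stayed within 1.2-fold in either direction. Missing the threshold does not show that the levels were equal. Within groups the median SD of the 10 genes was 0.049 in the deletion and 0.076 in wild type, close to the medians of all tested probe sets, 0.045 and 0.077.

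Wild type replicate 3 was the highest wild type array for 7 of the 10 genes and the lowest for 2. Of all 5498 tested probe sets, it was the highest for 2369 and the lowest for 2276. Its median offset from the other wild type arrays was 0.097 over the transporters and 0.0033 over all tested probe sets. The median absolute offsets were alike, 0.11 in both. The direction of AVT7 depended on that array. Without that array AVT2 differed by 0.17, AVT3 by 0.011, YPQ1 by 0.015 and YPQ2 by 0.010. Over 6 arrays these differences were 0.12, 0.027, 0.00012 and 0.043. For the other transporter genes the values without that array are given above.

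**Figure D3:**
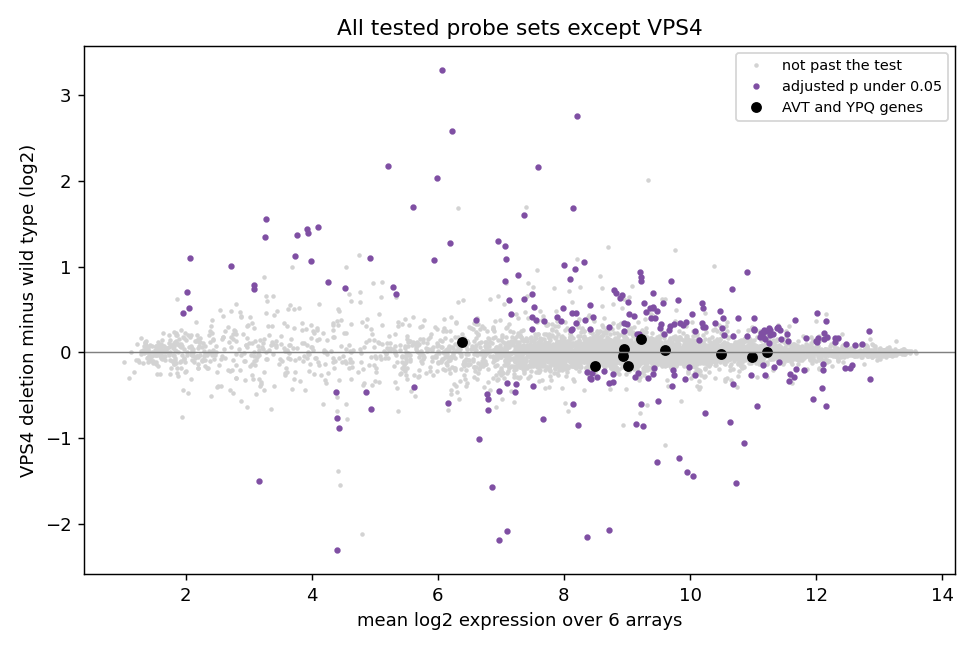
Difference in log2 expression, VPS4 deletion minus wild type, against the mean log2 level over 6 arrays for every tested probe set except VPS4; purple points passed the adjusted threshold, grey ones did not, and black points are the 10 transporter genes. The black points lie within 0.16 log2 of 0, inside the cloud of grey points.

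The probe sets of all 10 genes were above background on all 6 arrays, and none of them was of a type shared between related transcripts. The protein-coding genes next to each transporter gene in assembly R64 were also read. All 20 neighbours were measured, 0 overlapped a transporter gene and 0 passed the test (limma). They include CAN1, the arginine permease gene beside AVT2, with a difference of -0.11 ± 0.062 (SE). Without wild type replicate 3, 4 of the neighbours passed: SIT1 beside AVT2, MRP21 beside AVT5, SPO21 beside YPQ1 and TRR1 beside YPQ2, named after their values were seen. That is 4 of 20, beside 22.0% of all tested probe sets called in that fit.

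RTC2, as the gene with the smallest p, was set against all other tested probe sets by the root mean square distance between profiles, each centred on its own mean over the 6 arrays. The nearest were YDR249C, YDR109C, PTP1, PHA2 and YUH1, at distances from 0.028 to 0.039 log2. PTP1 encodes a tyrosine phosphatase and PHA2 an enzyme of phenylalanine synthesis. None of these 5 passed the test over 6 arrays, with adjusted p-values from 0.0869 for PHA2 to 0.369 for YDR109C (limma), although PHA2 passed without wild type replicate 3 (limma adjusted p = 0.0233). They were picked for closeness to RTC2 on these same arrays, so their tests are not separate from that of RTC2. The other AVT and YPQ genes ranked by this distance from 890 (AVT1) to 4639 (AVT2) among the 5498 tested probe sets.

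Related genes of the vacuole and of lysine and arginine supply were read as lists. For comparison with their counts, 2.82% of all tested probe sets were higher and 1.46% lower over 6 arrays. Without wild type replicate 3 these shares were 11.9% and 10.1%. Among 9 measured genes of the list named other vacuolar amino acid and peptide transport, 1 was higher, 0 were lower and 8 did not pass. The higher gene was BTN2, whose protein acts in protein retrieval from endosomes rather than as a transporter. No other gene of the list passed over 6 arrays. BTN2 read 9.66, 9.62 and 9.75 in the deletion, against 9.31, 9.05 and 9.11 in wild type. Its difference was 0.52 ± 0.074 (SE), or 1.43-fold (limma adjusted p = 0.0140), and every deletion array lay above every wild type array. Groups did not overlap, in either direction, for 24.8% of all tested probe sets. BTN2 did not pass without deletion replicate 4, 5 or 6 or without wild type replicate 6, with limma adjusted p up to 0.0813. The list's median difference was -0.019. Without wild type replicate 3, BTN2 and VBA1 were higher and 1 gene was lower; the lower one, VBA4, differed by -0.24 ± 0.051 (SE) over 6 arrays and was chosen after its values were seen (limma adjusted p = 0.0529, and 0.00385 without that array).

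The vacuolar ATPase, which makes the gradient that the transporters use, held 0 called genes of 20 measured (limma), with a median difference of -0.033. VPH2, an assembly factor of that ATPase, had the smallest p, at 8.72, 8.72 and 8.66 in the deletion and 8.55, 8.43 and 8.39 in wild type. Its difference was 0.24 ± 0.056 (SE, limma adjusted p = 0.0656), and it was among 2 ATPase genes higher without wild type replicate 3, with VMA13, named after its values were seen. In that fit 11.9% of all tested probe sets were higher. The 4 measured genes of polyphosphate synthesis, whose product binds basic amino acids in the vacuole, held 0 called genes. VTC1 had the smallest p there, with a difference of -0.083 ± 0.043 (SE; limma adjusted p = 0.389).

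The machinery that places transporters in the vacuole membrane or removes them was read next. Of 7 genes of AP-3 sorting to the vacuole, 0 passed, and YCK3, a vacuolar casein kinase, had the smallest p with -0.12 ± 0.054 (SE; limma adjusted p = 0.326). Of 8 measured genes of ubiquitin ligases and adaptors of the vacuole membrane, 0 passed over 6 arrays. DSC3, a subunit of the Dsc ligase complex, had the smallest p with -0.21 ± 0.12 (SE; limma adjusted p = 0.466), and wild type replicate 3 read 7.59 beside 7.09 and 7.25. SSH4, the Rsp5 adaptor known to act on Ypq1, was named after its values were seen. It read 7.53, 7.44 and 7.56 in the deletion and 7.48, 7.71 and 7.76 on wild type replicates 3, 4 and 6. Its difference of -0.14 ± 0.087 (SE) did not pass (limma adjusted p = 0.494), whereas it was lower without replicate 3, by -0.22 ± 0.066 (SE; limma adjusted p = 0.0366).

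In the list of lysine and arginine supply, 2 of 16 genes were higher, 2 were lower and 12 did not pass, beside 2.82% higher and 1.46% lower over all tested probe sets. ARG3, the ornithine carbamoyltransferase gene of arginine synthesis, stood at 10.82, 10.60 and 10.85 in the deletion, against 11.42, 11.41 and 11.30 in wild type, and was lower by -0.62 ± 0.072 (SE; limma adjusted p = 0.00764). ARG8, an enzyme of the same pathway, was lower by -0.26 ± 0.036 (SE; limma adjusted p = 0.0125). The dim gene ALP1, an arginine permease, was higher by 0.74 ± 0.15 (SE; limma adjusted p = 0.0412). CAR2, an enzyme of arginine breakdown, was higher by 0.23 ± 0.042 (SE; limma adjusted p = 0.0323) and was named after its values were seen. The list's median was -0.020. Of the 6 fits that each left out 1 array, ARG3 passed in 6, ARG8 in 3, ALP1 in 2 and CAR2 in 1. The list held 1 called gene without deletion replicate 4 or 5, and 2 without deletion replicate 6 or wild type replicate 4 or 6. Without wild type replicate 3, 5 genes were higher, LYS20, ARG4 and LYP1 besides ALP1 and CAR2, and the same 2 were lower, beside 11.9% of all tested probe sets higher and 10.1% lower in that fit.

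Among 14 transporters of the vacuole for metals, phosphate and other solutes, 2 were higher, 0 were lower and 12 did not pass. Over all tested probe sets 2.82% were higher and 1.46% lower. PMC1, the calcium pump of the vacuole, read 9.60, 9.61 and 9.55 in the deletion, against 9.23, 9.20 and 9.12 in wild type, and was 1.32-fold higher (limma adjusted p = 0.00693). ZRC1, the vacuolar zinc transporter, read 10.77, 10.73 and 10.80 in the deletion, against 10.56, 10.57 and 10.61 in wild type, and was 1.14-fold higher (limma adjusted p = 0.0260). Both genes had groups that did not overlap, as had 24.8% of all tested probe sets, and this adds no separate support to their calls. PMC1 did not pass without deletion replicate 5 (limma adjusted p = 0.0592), and ZRC1 passed in 1 of the 6 fits with an array left out, the one without wild type replicate 3. Without wild type replicate 3, 3 genes of this list were higher, VCX1 besides those named, and SMF3 was lower. In that fit 11.9% of all tested probe sets were higher and 10.1% lower.

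**Figure D4:**
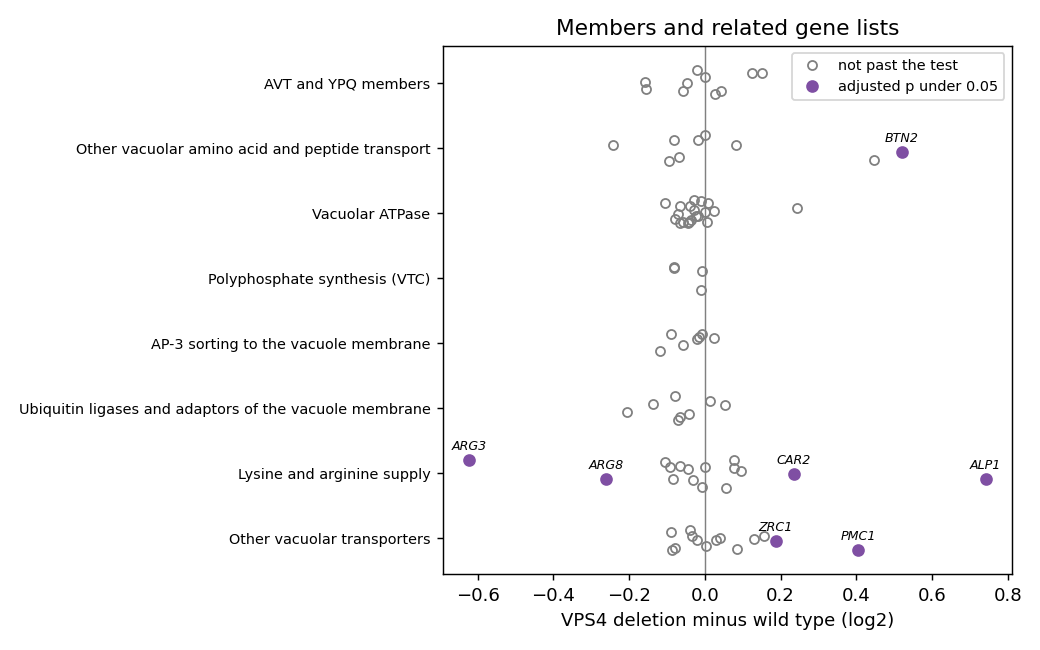
Difference in log2 expression, VPS4 deletion minus wild type, for each gene of the transporter families (top row) and of 7 related lists; filled purple points passed the adjusted threshold and carry their names, open grey points did not. The top row holds no filled point and spans -0.16 to 0.15, while ARG3 at -0.62 and ALP1 at 0.74 lie farthest out in the lists.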

How the data were processed

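The values deposited by the authors are log2 levels of single probe sets from GCRMA, per the submitters' processing notes (version not given in the sources used here), and they were used as they stood. GCRMA pulls dim probe sets together, which shrinks their spread and their differences. Groups and replicate numbers come from the sample titles. Names come from the platform annotation, with 12 symbols updated through assembly R64. Of 10928 probe sets, the 5498 of S. cerevisiae, covering 5449 genes, were tested. Array medians lay between 9.12 and 9.15, and background, percentile 95 of the other yeast's probe sets, between 1.82 and 1.92.

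Genotypes were compared with limma 3.58.1 (R 4.3.3; genotype as the only term, eBayes with a variance trend, two-sided), adjusted by Benjamini-Hochberg over all 5498 probe sets with a threshold of 0.05, after a check on simulated data. With 3 arrays in each group an exact permutation p cannot fall below 0.1, so none is given, and this number limits the precision.

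The transporter genes and the lists were chosen with earlier results of these data known. Named are VPS4, the 10 transporter genes, up to 3 called genes per list (otherwise the one with the smallest p), and the 5 profiles nearest to the transporter gene with the smallest p; others are said to be named after their values were seen. Alternatives were no variance trend, a robust prior, a filter on dim probe sets, median centring, quantile normalization, all probe sets but controls, array weights, a block for the title number, every array omitted in turn, and thresholds of 0.01 and 0.1.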

Additional observations from a re-analysis of the deposited data

How the results depend on the processing

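For the 10 transporter genes, 14 alternatives each were run, and 3 of these 140 gave a call, all for AVT6 as higher in the deletion: without wild type replicate 3, with array weights (0.26, limma adjusted p = 0.0201) and with the title number as a replicate block (0.22, limma adjusted p = 0.0197). The count of called transporter genes was 1 in each of these 3 settings and 0 in the others, thresholds of 0.01 and 0.1 included. With an array left out, this count ranged from 0 to 1. The 3 settings that called AVT6 also called 1212, 1036 and 858 of all 5498 tested probe sets, against 235 in the main fit. They are not separate support: the first omits wild type replicate 3, and the block gives that array no weight on the difference. Left-out arrays gave AVT1 differences from -0.090 to -0.017, AVT2 from 0.072 to 0.22, AVT3 from -0.0032 to 0.053, AVT4 from -0.22 to -0.089, AVT5 from -0.080 to -0.024, AVT6 from 0.083 to 0.27, AVT7 from -0.053 to 0.033, YPQ1 from -0.022 to 0.021, YPQ2 from 0.010 to 0.074 and RTC2 from -0.20 to -0.11. Signs also turned for AVT7 with array weights (0.027) and the block (0.040), for YPQ1 with quantile normalization (-0.0071) and median centring (-0.019), and for YPQ2 with the block (-0.0018). None of these turned values passed, and no cause was tested.

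The count over all probe sets, 235, was 1036 with array weights, 858 with the block, 67 at a threshold of 0.01 and 422 at 0.1, and ranged from 22 without deletion replicate 5 to 1212 without wild type replicate 3. The shared title numbers 4 and 6 are not stated to pair the arrays, and deviations from the group means correlated at 0.021 and -0.0586 between same-numbered arrays. The wild type mean includes replicate 3, which stood apart, so these correlations cannot decide whether the numbers pair arrays. An array whose number is not shared has no weight on the difference under the block, so that fit rests on 4 arrays. Array weights, the block and left-out arrays also moved the lists. The list of other amino acid transport, which includes BTN2, held 2 called genes with median centring, 3 with weights, 2 with the block and 0 to 3 with arrays left out. The vacuolar ATPase held 1 with weights, 1 with the block and 0 to 2 with arrays left out. The ubiquitin list held 1 with weights and 0 to 1 with arrays left out. Lysine and arginine supply held 7 with weights, 7 with the block and 1 to 7 with arrays left out. The other vacuolar transporters held 1 without the variance trend, 4 with weights, 4 with the block and 0 to 4 with arrays left out. A pseudocount was not varied because the values are already on the log2 scale.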
